A study of Mus musculus with 8 samples.

Results

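Ogt encodes O-GlcNAc transferase, the enzyme that attaches single N-acetylglucosamine residues (O-GlcNAc) to serine and threonine side chains of nuclear, cytosolic and mitochondrial proteins. It was taken as the row of that symbol in a table of read counts from undifferentiated spermatogonia (A_undiff), 1 of 14608 genes listed. Ogt was selected on its measured difference between the groups of this experiment, so its own levels and fold change are given as a description, without a test.

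Only 2 groups of 4 libraries each were measured. Regenerative A_undiff (BU) came from adult wild-type C57BL/6J mice of 6 to 8 weeks that had received 1 dose of busulfan at 10 mg/kg, and were taken 10 days later. Busulfan is an alkylating agent that kills differentiating spermatogonia and many A_undiff, after which the surviving A_undiff rebuild the germline. Homoeostatic A_undiff (CTRL) came from untreated mice of the same strain and age. In both groups testis cells were sorted for E-cadherin and CD49f (α6-integrin) and against c-KIT, so the libraries are mixtures of the stem and progenitor cells in that gate.

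O-GlcNAc is added by this enzyme alone in the nucleus and cytosol and is removed by a single hydrolase, O-GlcNAcase, listed here under its older symbol Mgea5 (now Oga). The donor sugar, UDP-GlcNAc, is made from fructose-6-phosphate, glutamine, acetyl-CoA and UTP by the hexosamine pathway, and the modification therefore follows nutrient supply. Ogt is X-linked in the mouse, is needed for survival of embryonic stem cells and of many dividing cells, and binds HCFC1, TET and NSL complex proteins on chromatin. Part of the Ogt transcript pool in mammalian cells keeps an intron, called a detained intron, and the splicing of that intron responds to the O-GlcNAc level.

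The counted Ogt locus spans chrX:101640060-101684351 on the plus strand (GRCm38), with 8045 bp of counted exonic sequence. GENCODE release M21 holds 7 transcript models of Ogt on exactly that many exonic bases, of which 2 are protein-coding and 3 are annotated as retained-intron transcripts. Together the coding models cover 5388 bp, and the remaining 2657 bp (33.0%) belong to non-coding models only. Reads of spliced and of intron-retaining Ogt RNA are therefore summed in 1 count, and the share of each was not analysed here. No other annotated gene overlaps Ogt, and none of the 5431 different 50-base words of its coding transcripts occurs in a transcript of another gene. Mgea5 lies on chromosome 19 on the minus strand, and the antisense gene Gm15491 overlaps 6.52% of its exonic bases, so without a stated strand setting some reads of the 2 cannot be told apart. For Mgea5 the deposited gene length was 5024 bp, shorter than the 8449 bp of M21, so per-length levels of Mgea5 rest on another set of exons than M21.

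To place the pair on the genome, the RefSeq promoter windows (GRCm38.p6, 250 bases before to 50 after the annotated start) are shown for the transferase at the first of its 2 annotated starts, chrX:101639801-101640100 on the plus strand and for the hydrolase at chr19:45783504-45783803 on the minus strand. Capitals mark matches to the 6 motifs searched on both strands, which were the TATA box TATAAA, the NFY box CCAAT, the GC box GGGCGG, the NRF1 core ATGCGC, the ETS core CCGGAA and the CRE core TGACG.
Ogt: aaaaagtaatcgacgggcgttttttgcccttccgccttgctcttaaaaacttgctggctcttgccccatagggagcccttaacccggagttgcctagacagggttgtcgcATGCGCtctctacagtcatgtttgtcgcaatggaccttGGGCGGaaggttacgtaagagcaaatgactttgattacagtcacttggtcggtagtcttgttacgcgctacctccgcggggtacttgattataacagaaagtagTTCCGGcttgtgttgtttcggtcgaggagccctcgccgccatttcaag
Oga: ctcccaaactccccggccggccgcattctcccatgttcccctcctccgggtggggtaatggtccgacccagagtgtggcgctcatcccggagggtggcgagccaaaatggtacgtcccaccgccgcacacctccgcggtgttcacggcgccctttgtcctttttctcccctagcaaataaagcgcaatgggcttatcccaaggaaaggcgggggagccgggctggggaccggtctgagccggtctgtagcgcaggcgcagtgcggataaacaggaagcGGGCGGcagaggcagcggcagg
The Ogt window shown held 1 GC box, 1 NRF1 core and 1 ETS core, which are found in 35.7%, 6.86% and 14.9% of all 32851 windows of this length. The Oga window held 1 GC box and no match to the other 5. No 2 marked matches overlapped. The window shown for Ogt had 20 CG pairs and that of Oga 26, against a median of 7. The other Ogt window, chrX:101639968-101640267, overlaps the one shown and held 1 GC box, 1 ETS core, no NRF1 core and 14 CG pairs. These matches describe the letters only, and the present counts do not measure use of either promoter.

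All 8 libraries were of similar depth, with total counts between 17181963 and 24243985 in BU and between 18152779 and 23875108 in CTRL. Mitochondrial genes took 42% to 45.6% of counts in BU and 39.8% to 43.5% in CTRL. Over the whole table, 993 genes (6.80%) were DEGs higher in BU and 956 (6.54%) DEGs lower in BU, 13.3% in all, where DEG stands for a gene that passed limma-voom at 0.05 after Benjamini-Hochberg correction across the table and changed by more than 1.5-fold. In 30.3% of genes the CPM values of the groups did not overlap.

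Ogt transcript levels were lower in regenerative A_undiff, at 111.7 ± 5.96 CPM (counts scaled to library size) in BU and 250.9 ± 11.4 CPM in CTRL (SD, n = 4 each). The BU libraries held 2014, 2650, 2280 and 1769 Ogt reads, against 5251, 4432, 5987 and 6139 in the CTRL libraries. Scaled by depth (TMM), Ogt was at 116.0, 105.7, 117.6 and 107.5 CPM in BU 2, BU 3, BU 4 and BU 5, against 249.6, 235.6, 256.4 and 262.0 CPM in CTRL 1 to CTRL 4. The groups did not overlap, and the highest BU library lay below the lowest CTRL library by far more than either group's range. The log2 fold change was −1.17 (SE 0.06), which is 2.25-fold lower in BU.

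Libraries of a group were close to each other in Ogt. The coefficient of variation between libraries was 5.34% in BU and 4.54% in CTRL, while counting alone gives 1.94% to 2.38% in the BU libraries and 1.28% to 1.502% in the CTRL libraries. In the shallowest BU library, BU 5, the exact 95% Poisson interval of Ogt ran from 102.5 to 112.6 CPM, which covers counting error only. The SE of the Ogt fold change was smaller than that of 97.0% of genes, and Ogt was above 96.5% of genes by mean log2 CPM. Mgea5, also abundant, had a similar SE of 0.05. In bulk libraries, fewer cells that express Ogt and less Ogt RNA per cell cannot be told apart.

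Of the genes at least as abundant as Ogt, none had a larger decrease. This cut is Ogt's own mean level, and Ogt was selected for its difference. Less abundant genes fell more, such as Lin28a (−1.24, SE 0.06), at 78.6 CPM in BU and 185.6 CPM in CTRL. Ogt ranked above 96.5% of genes by mean log2 CPM, and 207 of the 14608 genes had a lower log2 fold change. None of these 207 was as abundant as Ogt: of the 507 genes with at least its mean level, 15 were DEGs lower in BU and each had a smaller decrease. The nearest, named here after their values were seen, were Bnc2, a zinc finger gene of germ cells (−0.95, SE 0.09), the ceramide synthase gene Cers6 (−0.93, SE 0.07), Neb, which encodes the muscle protein nebulin (−0.89, SE 0.09), and Trrap, a scaffold of histone acetyltransferase complexes (−0.89, SE 0.06). Per length, Ogt stood at 20.6 ± 0.83 TPM (counts per kb of counted length, scaled to the library) in BU and 48.7 ± 3.13 TPM in CTRL (SD, n = 4 each). That placed it above 83.6% to 86.0% of genes in the BU libraries and above 94.9% to 95.7% in the CTRL libraries.

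**Figure D1:**
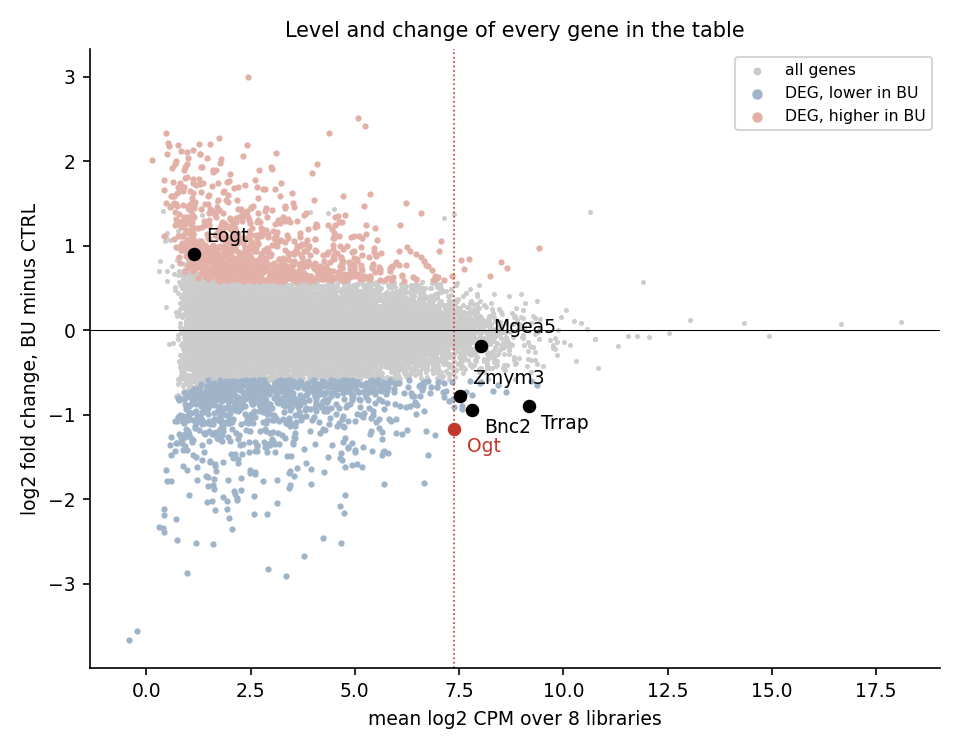
Each point is a gene, with its mean log2 CPM over the 8 libraries on the x axis and its log2 fold change, BU minus CTRL, on the y axis. Pale red and pale blue points are DEGs higher and lower in BU, and the dotted line marks the level of Ogt: at −1.17 Ogt lies lowest of all points on or right of that line.

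The hydrolase that removes O-GlcNAc was far closer between the groups. Mgea5 was at 248.2, 253.4, 233.5 and 244.3 CPM in BU, against 267.9, 286.3, 270.2 and 288.0 CPM in CTRL. On this TMM scale every BU library lay below every CTRL library, by a margin of 14.5 CPM between the nearest 2. That separation depended on the scaling: as TPM the groups met, with BU 3 at 82.304 and CTRL 1 at 82.298. The log2 fold change was −0.18 (SE 0.05, limma adjusted p = 0.00929), 1.13-fold lower in BU, so Mgea5 passed the adjusted p but not the fold change of a DEG. By the deposited lengths, the ratio of Ogt to Mgea5 per length was 0.285 ± 0.02 in BU and 0.564 ± 0.03 in CTRL (SD, n = 4 each). Its size depends on those lengths, 8045 bp for Ogt, of which 2657 bp lie in non-coding models only, and 5024 bp for Mgea5. Coding models of M21 cover 5388 bp and 6022 bp, so which gene had more RNA cannot be read from it. The ratio ran from 0.260 to 0.314 in BU and from 0.514 to 0.592 in CTRL, without overlap, and it inherits the selection of Ogt.

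A distinct transferase, EOGT, modifies extracellular domains in the endoplasmic reticulum and shares no intracellular substrates with OGT. Eogt was scarce, at 2.53, 3.15, 3.04 and 3.04 CPM in BU, against 1.62, 2.50, 1.16 and 1.41 CPM in CTRL. It was a DEG higher in BU, with a log2 fold change of 0.90 (SE 0.26, limma adjusted p = 0.0130), but BU 2 and CTRL 2 differed by only 0.035 CPM, on 44 and 47 reads. Without CTRL 3 its adjusted p was 0.0601.

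**Figure D2:**
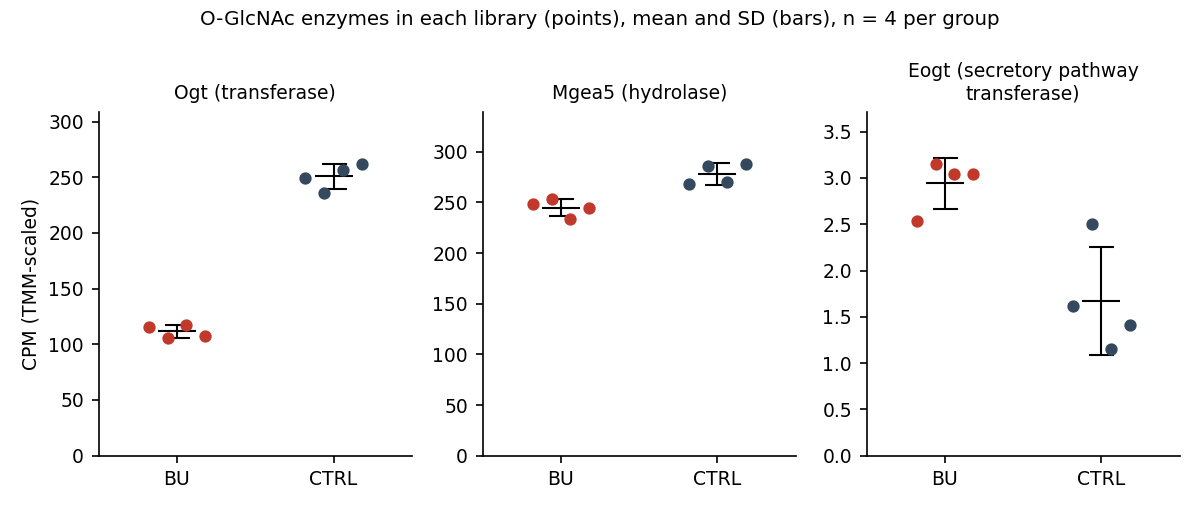
CPM (y axis, from 0) of Ogt, Mgea5 and Eogt in BU and CTRL libraries, where points are libraries and bars the mean and SD of 4. Ogt is at 105.7 to 117.6 CPM in BU and 235.6 to 262.0 CPM in CTRL, Mgea5 is above 233 CPM in all 8 libraries, and Eogt is below 3.2 CPM in all 8.

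Genes of the hexosamine pathway, which supplies UDP-GlcNAc, were mostly not called. Of 15 genes of the pathway and its branches, all measured, 1 was a DEG higher in BU, 1 a DEG lower in BU and 13 were not called, 6.67% in each direction and close to the 6.80% and 6.54% of the whole table. Their median log2 fold change was 0.21, against −0.01 over all genes. Groups did not overlap in 8 of the 15, against 30.3% of genes over the table, and 6 passed the adjusted p at any fold, against 32.1% of all genes. In 11 of the 15 the unadjusted p was under 0.05 with limma-voom, edgeR's quasi-likelihood test and DESeq2 alike, against 41.7% of all genes with limma-voom.

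The pathway's rate-limiting step joins an amino group from glutamine to fructose-6-phosphate and is made by 2 genes. Gfpt2 rose, with 25.6, 23.1, 22.4 and 25.3 CPM in BU, against 17.02, 13.4, 14.6 and 13.7 CPM in CTRL (log2 fold change 0.71, SE 0.10, limma adjusted p = 4.72e-05). The more abundant Gfpt1 was at 57.2, 69.3, 62.4 and 66.5 CPM in BU, against 56.8, 54.4, 52.9 and 57.1 CPM in CTRL, a log2 fold change of 0.21 (SE 0.07, limma adjusted p = 0.0349) that is below the fold change of a DEG. All BU libraries lay above all CTRL libraries in both genes, in Gfpt1 by only 0.076 CPM.

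The next steps to UDP-GlcNAc were not called. Gnpnat1, which acetylates glucosamine-6-phosphate, had a log2 fold change of −0.08 (SE 0.10), the mutase gene Pgm3 of 0.33 (SE 0.13) and Uap1, which couples UTP to the sugar, of 0.27 (SE 0.11). The Uap1 paralog Uap1l1 was at −0.34 (SE 0.15), with limma adjusted p between 0.0638 and 0.552 for these 4 genes. In the salvage and breakdown routes, the N-acetylglucosamine kinase gene Nagk was at 0.03 (SE 0.16), the deacetylase gene Amdhd2 at −0.31 (SE 0.14), and the glucosamine-6-phosphate deaminase genes Gnpda1 and Gnpda2 at 0.10 (SE 0.11) and −0.21 (SE 0.09). None of these 4 was called.

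Renbp, the gene of an epimerase between N-acetylglucosamine and N-acetylmannosamine, was the pathway's DEG lower in BU. It was at 1.79, 2.51, 1.86 and 1.21 CPM in BU, against 4.14, 3.67, 2.87 and 3.97 CPM in CTRL (log2 fold change −0.96, SE 0.25, limma adjusted p = 0.00765). At this low level the nearest libraries of the 2 groups, BU 3 and CTRL 3, differed by 0.36 CPM. Along the branch that draws UDP-GlcNAc into sialic acid, Gne was at 0.33 (SE 0.12), Nans at 0.21 (SE 0.11) and Cmas at 0.24 (SE 0.08) on the log2 scale. Slc35a3, the gene of the Golgi carrier of UDP-GlcNAc, was at 0.38 (SE 0.13), and none of these 4 reached the fold change of a DEG.

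Proteins that bind OGT were measured next. Of 21 genes of HCFC1, TET, SIN3A, BAP1, NSL and trafficking partners, 0 were DEGs higher and 1 was a DEG lower in BU, against 6.80% and 6.54% of all genes, and the median log2 fold change was −0.05. The 1 gene was Tet3, which encodes an oxidase of 5-methylcytosine. Tet3 was at 68.1, 83.4, 97.2 and 69.2 CPM in BU, against 126.7, 119.8, 126.8 and 128.5 CPM in CTRL (log2 fold change −0.67, SE 0.09, limma adjusted p = 1.77e-05). The groups did not overlap, with BU 4 the highest of the BU libraries.

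Nucleoporins with phenylalanine-glycine repeats (FG nucleoporins) line the nuclear pore and are among the most heavily O-GlcNAc-modified proteins. Of 11 measured, 0 were DEGs in limma-voom, edgeR's quasi-likelihood test or DESeq2, against 13.3% of all genes with limma-voom. In 4 of the 11 the unadjusted p was under 0.05 with each of the 3 tools, against 41.7% of all genes with limma-voom. The 2 with the smallest adjusted p were Ranbp2, a large pore filament protein (−0.17, SE 0.04, limma adjusted p = 0.00367), and Pom121, a membrane-anchored pore protein (0.29, SE 0.07, limma adjusted p = 0.00649), and neither reached a 1.5-fold change. The list's median log2 fold change was 0.04.

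Other enzymes spend the same donor sugar on glycans of the secretory route, glycolipid anchors and heparan sulfate. Of 20 such genes measured, 4 were DEGs higher in BU (20.0%) and 2 DEGs lower (10.0%), against 6.80% and 6.54% of all genes, with a median log2 fold change of 0.16. Alg13, whose product adds the second N-acetylglucosamine of N-glycan precursors, was at 70.8, 76.6, 79.0 and 81.5 CPM in BU, against 48.7, 40.5, 48.1 and 43.95 CPM in CTRL (log2 fold change 0.76, SE 0.08, limma adjusted p = 8.09e-07). Dpagt1, which begins those precursors, rose by 0.59 on the log2 scale (SE 0.12), only just past the fold threshold, and Lfng, a Notch-modifying Fringe enzyme, by 1.60 (SE 0.33, limma adjusted p = 0.00112). Lfng was at 4.03, 8.38, 3.61 and 4.07 CPM in BU, with BU 3 apart from the others, against 2.09, 2.07, 1.07 and 1.58 CPM in CTRL. Gcnt2, a branching enzyme of polylactosamine chains, had a log2 fold change of −1.31 (SE 0.17, limma adjusted p = 1.35e-05), with 4.35 to 6.86 CPM in BU and 11.1 to 14.7 CPM in CTRL. The remaining DEGs were Ext2, a heparan sulfate polymerase, higher in BU, and Mfng, a second Fringe enzyme, lower in BU, named here after their values were seen.

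Splicing factors known to act on detained introns, including that of Ogt, comprised Sfswap, Son and 4 Clk kinase genes. Of these 6, 0 were DEGs with limma-voom, edgeR or DESeq2, and the unadjusted p was under 0.05 in 3 of the 6 with each tool, against 13.3% and 41.7% of all genes with limma-voom. Their median log2 fold change was 0.02. Clk1, a kinase of SR splicing proteins, lay just under the fold threshold at −0.57 (SE 0.09, limma adjusted p = 8.82e-05), with 70.0, 50.8, 50.2 and 53.2 CPM in BU, against 79.6, 84.4, 85.3 and 79.1 CPM in CTRL. BU 2 was the highest BU library, and without it the log2 fold change of Clk1 was −0.68 and it was a DEG. Son, a nuclear speckle protein gene, was at −0.22 (SE 0.05, limma adjusted p = 0.0026).

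**Figure D3:**
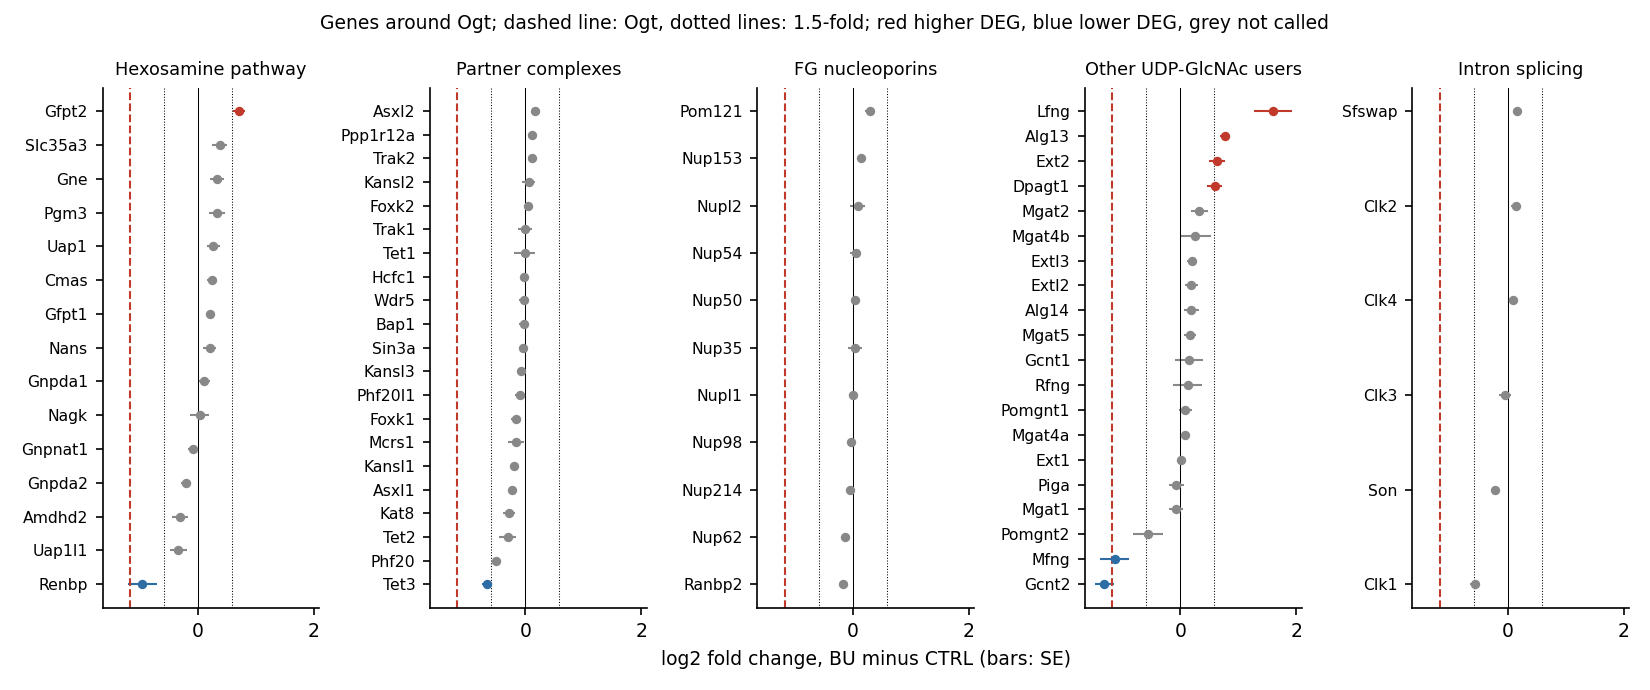
Log2 fold change, BU minus CTRL, with its SE for every measured gene of 5 lists around Ogt, where red and blue points are DEGs higher and lower in BU and grey points were not called. The dashed line is Ogt at −1.17, and of all genes drawn, Gcnt2 at −1.31 is the only one beyond it.

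Ogt lies on the X chromosome, where DEGs higher and lower in BU were about as many. Of the other 532 X-linked genes, 52 (9.77%) were DEGs higher in BU and 50 (9.40%) DEGs lower in BU, against 6.80% and 6.54% of the whole table, and their median log2 fold change was 0.00. Of the 17 other listed genes that start within 1 Mb of Ogt, 1 was a DEG higher and 3 were DEGs lower in BU, with a median of 0.07. The 3 listed genes on the near side of lower coordinates were Zmym3, Nono and Taf1. Zmym3, a zinc finger gene 235.7 kb from Ogt by start, fell, with 139.3, 147.6, 137.3 and 133.2 CPM in BU, against 250.5, 243.1, 232.7 and 233.3 CPM in CTRL (log2 fold change −0.78, SE 0.05, limma adjusted p = 1.41e-08). The RNA-binding protein gene Nono (−0.10, SE 0.08) and Taf1, the largest subunit of TFIID (−0.07, SE 0.06), lie between Zmym3 and Ogt and were not called.

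On the other side came Gm4779 (0.29, SE 0.10), 8030474K03Rik (0.16, SE 0.07) and Nhsl2 (0.44, SE 0.12), each above 0 and none called. The 3 DEGs lower in BU within 1 Mb were Zmym3, the neuroligin gene Nlgn3 (−1.01, SE 0.27) and the ribosomal protein gene Rps4x (−0.59, SE 0.09), and the DEG higher in BU was the transcriptional coregulator gene Cited1 (1.68, SE 0.19). The last 3 of these were named after their values were seen.

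**Figure D4:**
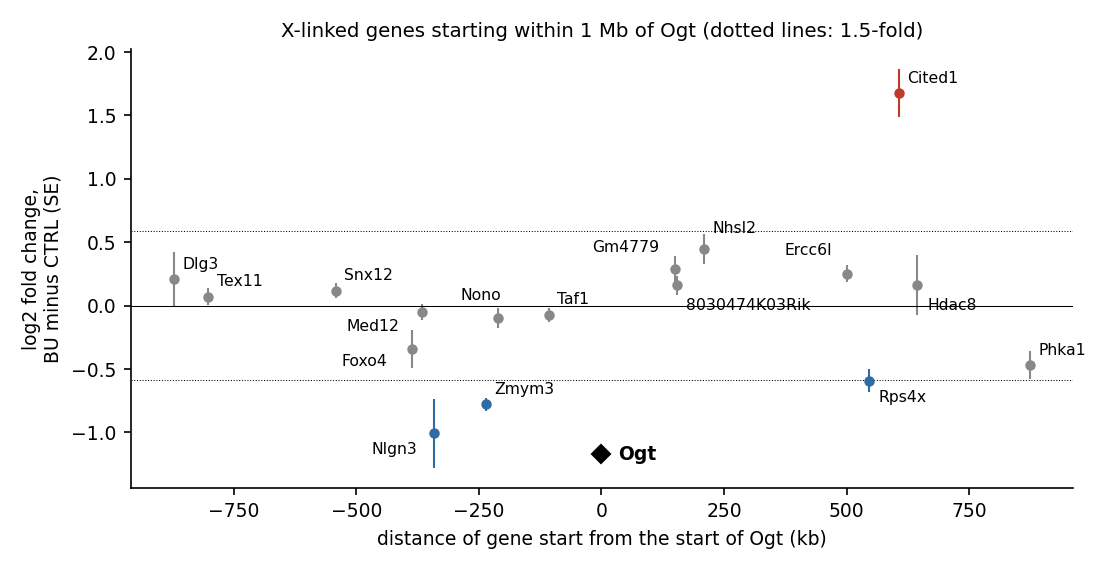
Log2 fold change, BU minus CTRL, with SE for the 17 genes that start within 1 Mb of Ogt, by distance from the start of Ogt in kb, where the diamond is Ogt, blue and red points are DEGs and dotted lines mark a 1.5-fold change. The nearest genes on both sides, Taf1 at −0.07 and Gm4779 at 0.29, lie far above Ogt.

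Genes with the profile closest to that of Ogt were found among the 9136 other genes with a mean log2 CPM of at least 3, as those with the smallest root mean square difference of centred log2 CPM over the 8 libraries. The 10 closest lay between 0.07 and 0.11 on that scale, against a median of 0.59 over all compared. In order they were Prtg, an immunoglobulin superfamily receptor gene, 4933431E20Rik, the choline transporter-like gene Slc44a2, Rragd, a Rag GTPase of lysosomal mTORC1 signalling, the let-7-binding protein gene Lin28a, the calcium-binding protein gene Rcn1, the peptide-trimming aminopeptidase gene Erap1, the kinesin gene Kif5c, the microtubule-associated protein gene Eml5 and the transcription factor gene Egr4. Because likeness was measured in the same 8 libraries, their differences repeat the choice and are given without a test. Prtg was at 72.8, 68.0, 65.6 and 70.0 CPM in BU, against 155.6, 150.4, 151.5 and 169.5 CPM in CTRL, and Lin28a at 80.2, 86.3, 75.2 and 72.7 CPM in BU, against 191.0, 179.5, 182.5 and 189.4 CPM in CTRL. All 10 had log2 fold changes between −1.24 and −1.03. The order rests on small differences: ranking by Pearson correlation kept 1 of the 10, and leaving out BU 3 kept 3.

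**Figure D5:**
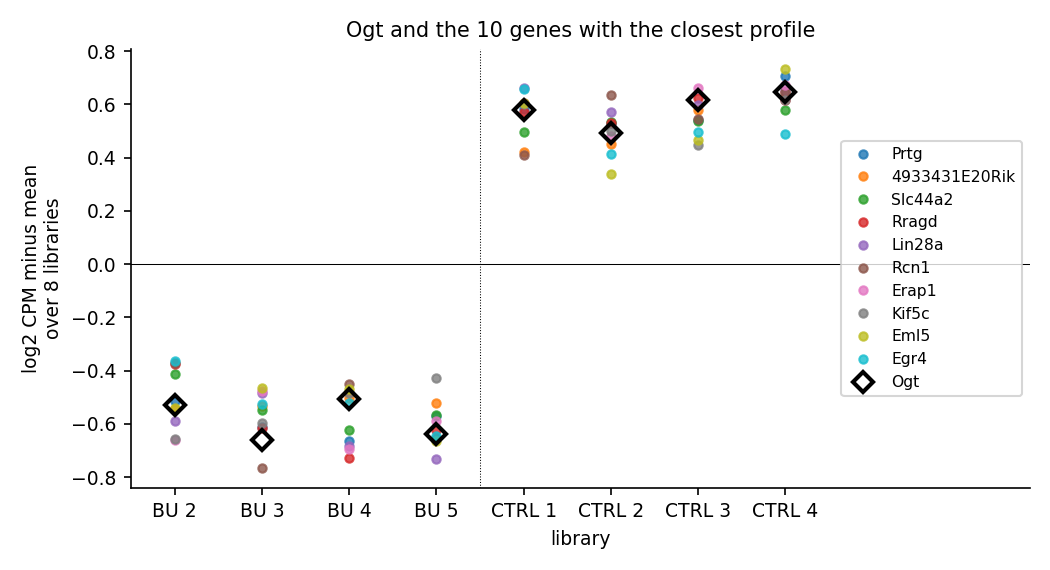
Log2 CPM minus its mean over the 8 libraries (y axis) for Ogt (open diamonds) and the 10 genes closest to it (points), by library. Every gene is below 0 in the 4 BU libraries and above 0 in the 4 CTRL libraries, and Ogt itself runs from −0.66 in BU 3 to 0.65 in CTRL 4.

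Markers of states and cell types were set beside Ogt to describe what the sorted cells held. Of all genes, 6.80% were DEGs higher and 6.54% DEGs lower in BU. All 8 progenitor markers were DEGs lower in BU, with a summed level of 124.1 to 156.9 CPM in BU and 336.6 to 353.8 CPM in CTRL. Lin28a, one of the 10 genes closest to Ogt, is among them. Lin28a made up much of that sum, at 72.7 to 86.3 CPM in BU and 179.5 to 191.0 CPM in CTRL. Upp1, a uridine phosphorylase gene used as a progenitor marker, was at −2.90 (SE 0.18, limma adjusted p = 4.06e-09). Of 10 stem-associated markers, 6 were DEGs higher in BU, 0 were lower and 4 were not called. The 10 summed to 599.4 to 745.6 CPM in BU and 395.7 to 460.2 CPM in CTRL. Among those higher were Lhx1 (1.62, SE 0.11), a transcription factor, and Nefm (1.51, SE 0.08), a neurofilament gene. The study reported no significant change of Gfra1 and Id4, which are both in this list. Progenitor markers were thus lower in BU, as Ogt was, and 6 stem-associated markers were higher, and the part of either in the Ogt difference was not tested. Several of these markers were named by the study on these samples, so their direction is not independent evidence.

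General spermatogonial markers were present in every library, at a summed 1687 to 1831 CPM in BU and 2013 to 2271 CPM in CTRL. Of the 9, 3 were DEGs lower in BU, against 6.54% of all genes, among them Zbtb16 (−0.79, SE 0.06) and Lin28a, also a progenitor marker. Of the genes of the sort markers, Cdh1 (E-cadherin) was at −0.035 (SE 0.09) and Itga6 (CD49f) at 0.26 (SE 0.05), neither called. Kit, whose protein was sorted against, was a DEG at 78.6 to 110.2 CPM in BU and 14.9 to 20.9 CPM in CTRL (2.42, SE 0.13). All 5 differentiation markers were DEGs higher in BU, against 6.80% of all genes, with Ccnd2, a cyclin gene, at 0.84 (SE 0.06). Of 6 meiotic markers 0 were DEGs higher and 1 was a DEG lower, Spo11, the break-forming enzyme gene (−1.03, SE 0.14), while Sycp2, of the synaptonemal complex, was at −0.50 (SE 0.09). The other 4 lay between 0.08 and 0.44, and the median of the 6 was 0.08. Dmc1 (0.44, limma adjusted p = 0.00186) and Sycp1 (0.21, limma adjusted p = 0.0249) passed the adjusted p but not the fold change. The same held for Sycp2 in the other direction (limma adjusted p = 0.000358).

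Somatic markers were low beside these, and the counts of their DEGs stand against 6.80% higher and 6.54% lower over all genes. Immune markers summed to 26.8 to 39.8 CPM in BU and 11.6 to 19.2 CPM in CTRL. All 5 that are listed were DEGs higher in BU, Mrc1 (1.13, SE 0.17) and Cd74 (1.87, SE 0.33) among them. Adgre1, Csf1r and Lyz2 are not among the 14608 genes listed. Sertoli markers summed to 36.4 to 49.4 CPM in BU and 29.2 to 40.7 CPM in CTRL, with 2 of 5 DEGs higher, Cldn11 (1.30, SE 0.36) and Sox9 (0.67, SE 0.20), of which Sox9 was not called without CTRL 3 (0.52). Endothelial markers summed to 20.8 to 27.2 CPM in BU and 14.4 to 15.9 CPM in CTRL, with Kdr a DEG higher (1.47, SE 0.15) and Cdh5 not called (−0.42, SE 0.18). The 3 peritubular and stromal markers summed to 33.7 to 36.998 CPM in BU and 54.4 to 58.8 CPM in CTRL, with Pdgfra higher (0.91, SE 0.17) and Col1a1 lower (−1.39, SE 0.10), both DEGs. Of the Leydig markers only Star was among the genes listed, and Star was not called (−0.04, SE 0.16). Every gene listed had at least 1 CPM in at least 4 libraries, so markers below that level could not appear. The part of these cells in the Ogt difference was not tested.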

How the data were processed

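RNA of 4 BU and 4 CTRL samples was amplified as cDNA by SPIA and sequenced as paired-end reads of 100 bp. Reads were processed with RNAsik by the authors. GRCm38, featureCounts, limma and edgeR are named in the submitters' processing notes, while the aligner, annotation release and strand setting are not given in the sources used here. The deposited values are raw read counts per gene with the authors' gene lengths in bp. The authors' fold changes, mean levels and p-values were not used, nor were 8 per-sample CPM columns. SPIA amplification can change relative transcript yields.

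CTRL columns carry the replicate number of the label. BU columns bear the numbers 2 to 5, unlike the labels, and were assigned to the group only. By the study's methods 4 mice were taken per group, but no label says which mouse gave which library, and p-values reflect the spread of these libraries.

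The groups were compared in R 4.3.3 with limma-voom 3.58.1, TMM scaling from edgeR 4.0.16 and the group as the only term. filterByExpr removed 0 of 14608 genes. Every listed gene had at least 1 CPM in at least 4 libraries, so shares and ranks over all genes are over genes detected at that level. A DEG had an adjusted p under 0.05 over all genes and a fold change over 1.5. TPM values were computed from the counts and deposited lengths over the listed genes. Results were recomputed with DESeq2 1.42.0, with edgeR's quasi-likelihood test, with other scalings, filters and thresholds, with quality weights and leaving out each library. Python 3.11.15 was used for tables. The fitting code was tested on simulated counts.

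Named were Ogt and Mgea5, all cycling and hexosamine genes, up to 4 DEGs by adjusted p of each other list (with none, the 2 smallest adjusted p), 3 neighbours on each side, the 10 closest profiles, the sort markers and 2 genes of each marker list. Ogt, the lists and the tests were chosen with earlier results of these data known.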

Additional observations from a re-analysis of the deposited data

Results flagged for a closer look

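In 9 of the 124 groups of 4 libraries examined for the named genes, 1 library stood apart from the other 3 by Dixon's ratio, which chance gives in about 5% of groups, or 6.2 of the 124. Neither group of Ogt, Mgea5 or Eogt was among them. Among the BU libraries these were Lfng at 8.38 CPM in BU 3, against 3.61 to 4.07 CPM in the others, Cldn11 at 5.74 CPM in BU 3, against 2.06 to 2.31 CPM, Dpagt1 at 13.1 CPM in BU 4, against 11.1 to 11.4 CPM, Clk1 at 70.0 CPM in BU 2, against 50.2 to 53.2 CPM, and Kit at 110.2 CPM in BU 4, against 78.6 to 83.7 CPM. Among the CTRL libraries they were Gnpda2 at 35.2 CPM in CTRL 3, against 30.6 to 30.9 CPM, Kit at 20.9 CPM in CTRL 2, against 14.9 to 15.6 CPM, Ccnd2 at 182.2 CPM in CTRL 2, against 151.7 to 155.9 CPM, and Nono at 53.1 CPM in CTRL 2, against 58.1 to 59.0 CPM.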

How the results depend on the processing

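The log2 fold change of Ogt stayed between −1.20 and −1.14 under all 16 alternatives run, and that of Mgea5 between −0.21 and −0.16. Of these, the fit without the expression filter repeats the main fit, because the filter removed 0 genes. No paired analysis was possible because the BU columns carry numbers other than those of the BU labels and share no documented pairing with the CTRL replicates. Without a fold threshold Mgea5 was called (log2 fold change −0.18). Called genes became 5 higher and 1 lower in the hexosamine list, 0 higher and 5 lower among OGT partners, and 2 higher and 1 lower among FG nucleoporins. They became 0 higher and 2 lower among splicing regulators, 99 higher and 99 lower among X-linked genes, and 4 higher and 4 lower within 1 Mb of Ogt. Of all genes, 15.2% were then called higher and 16.9% lower. At a fold change over 2, the hexosamine list had 0 higher and 0 lower, OGT partners 0 higher and 0 lower, and other UDP-GlcNAc users 1 higher and 2 lower. X-linked genes then had 17 higher and 14 lower, and genes within 1 Mb 1 higher and 1 lower. Of all genes, 2.41% were called higher at that fold and 2.14% lower. With only genes at 5 CPM or more in at least 4 libraries tested, hexosamine genes had 1 higher and 0 lower, and other UDP-GlcNAc users 3 higher and 1 lower. X-linked genes then had 33 higher and 36 lower, and genes within 1 Mb 1 higher and 1 lower. Of the 11013 genes tested, 5.48% were called higher and 5.79% lower. With library totals only, 1 splicing regulator was lower (Clk1 at −0.59) and Dpagt1 was lost at 0.57. Leaving out 1 library gave 0 to 1 lower splicing regulators (Clk1, without BU 2 or CTRL 4), and kept 3 to 10 of the genes closest to Ogt, which Pearson correlation reduced to 1. Nagk (−0.053 to 0.16), Star (−0.13 to 0.062) and Cdh1 (−0.077 to 0.0045), not called in any fit, changed sign when single libraries were left out. Dpagt1 lost its call without BU 4 (0.53) or CTRL 4 (0.55), Eogt without CTRL 3 (0.74) and Sox9 without CTRL 3 (0.52). The causes were not tested. Low genes such as Eogt (SE 0.26) and Renbp (SE 0.25) had a larger SE than the median of 0.13.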
